A study of Canis lupus familiaris with 5 samples.

Results

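The tumour necrosis factor (TNF) superfamily of ligands and the TNF receptor superfamily were examined in 5 canine lymphoid tumour cell lines. The members were all genes whose symbol in the array annotation starts with TNFRSF or TNFSF, together with CD27, CD70, FAS, FASLG, LTA, LTB and TNF. This gave 32 genes, 17 receptors and 15 ligands, of the 15115 genes with a probe set, on 52 of the 42924 probe sets analysed. Where several probe sets named a gene, the one with the highest mean over the 5 arrays stood for it, and the gene was tested where this one reached log2 5 on at least 2 arrays. Of the 32 members 31 were tested, among 14162 tested genes. TNFRSF11B, which encodes the soluble decoy receptor osteoprotegerin, stayed at 3.73 to 4.13 and was not tested.

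Each line was measured once, on 1 Affymetrix canine array, in total RNA of untreated cells grown in RPMI medium with 10% serum. Lines 17-71 (a B-lymphoid malignancy) and GL-1 (a B-cell leukaemia) are labelled as B cells. CL-1 (a primitive a/b T-cell leukaemia), CLGL-90 (a large granular lymphocyte, or LGL, leukaemia labelled as T) and CLL-1390 (a primitive T-cell leukaemia) are labelled as T cells. Every value is a log2 intensity, so that 1 unit is a factor of 2, and values of different probe sets are not set against each other. Since no line has a second array, SDs and p-values rest on the spread between single arrays of different lines. Differences between lines cannot be told apart from variation of culture or array in this spread. Single lines are described without a test, and the number of arrays limits the precision. The labelled lineages were checked on their defining markers. A guide to background came from 59 controls on the array whose target sequences dogs do not have. The highest of these on an array, 6.39 to 6.76 over the 5 arrays, is called its control ceiling here, and a size that rests on a value at or under the ceiling depends on background. Of 4 B-lymphocyte markers, 1 lay above the ceiling in 17-71 and 2 in GL-1, against 1 in CL-1, 2 in CLGL-90 and 1 in CLL-1390. CD79A, part of the B-cell receptor, read 7.83 in GL-1 and 5.50 in 17-71, while T-labelled lines read 5.15 to 5.80, so it stood apart in GL-1 alone. PAX5 lay above the ceiling in all 5 lines and varied by 0.35, MS4A1 lay above it in CLGL-90 only (6.79, ceiling 6.76), and CD79B in 0 lines. Of 5 T-lymphocyte markers 1 lay above it in 17-71 and 4 in GL-1, against 3 in CL-1, 5 in CLGL-90 and 4 in CLL-1390. CD3D, CD3G and LCK did not follow the labels of GL-1 and CL-1. They read 9.78, 10.01 and 10.65 in B-labelled GL-1, against 5.44, 5.34 and 8.88 in T-labelled CL-1. CD247 went the other way, with 5.85 in GL-1 and 11.16 in CL-1. CD3E lay above the ceiling in all 5 lines (7.91 in GL-1, 7.81 in CL-1). Of 4 fibroblast markers, 1 lay above it in CLL-1390 and 0 in the other lines.

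TNF family ligands are mostly trimeric proteins of the cell surface, some of which are shed, and they cluster their receptors. Receptors with a death domain, such as FAS and TNFRSF1A, can recruit caspases and start apoptosis. Most others bind TRAF adaptors, which activate NF-kB and the stress kinases and support the survival and costimulation of lymphocytes. Roles given here come largely from human and mouse work.

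The families held many genes that differed widely between the lines. Of the 31 tested members, 13 varied by log2 2 or more over the 5 lines (41.9%), against 14.2% of all tested genes, and the median range of the 31 was 1.14 against 0.76 over all tested genes. The 13 were the receptors FAS, TNFRSF1A, TNFRSF25, CD27, TNFRSF4 and TNFRSF18 and the ligands CD70, FASLG, TNFSF8, TNFSF11, TNFSF10, LTA and TNFSF13B. TNFRSF18 lay just inside that limit with a range of 2.08, and TNFRSF14 just outside with 1.96. The lines did not share one order: CL-1 was highest in 4 of the 13 genes and lowest in 5, 17-71 highest in 3, CLGL-90 in 3, GL-1 in 2 and CLL-1390 in 1. CLGL-90 was lowest in 0 of the 13. The remaining 18 tested members varied by less than log2 2. For a probe set that varied little, no line shows that it responds.

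The lines also differed in how many members cleared background. Above the control ceiling lay 24 of the 31 members in 17-71 (against 72.1% of all tested genes) and 20 in GL-1 (70.3%), against 20 in CL-1 (74.3%), 21 in CLGL-90 (70.4%) and 16 in CLL-1390 (70.4%). Members above it in every line numbered 14 (45.2%, against 62.8% of all tested genes). These were TNFRSF1B, TNFRSF8, TNFRSF12A, TNFRSF13B, TNFRSF13C, TNFRSF14, TNFRSF18, TNFRSF21 and TNFRSF25 among the receptors and LTB, TNF, TNFSF10, TNFSF13 and TNFSF15 among the ligands. Another 4, TNFRSF11A, TNFRSF19, TNFSF4 and TNFSF14, lay at or under it in every line (12.9%, against 19.3%).

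**Figure D1:**
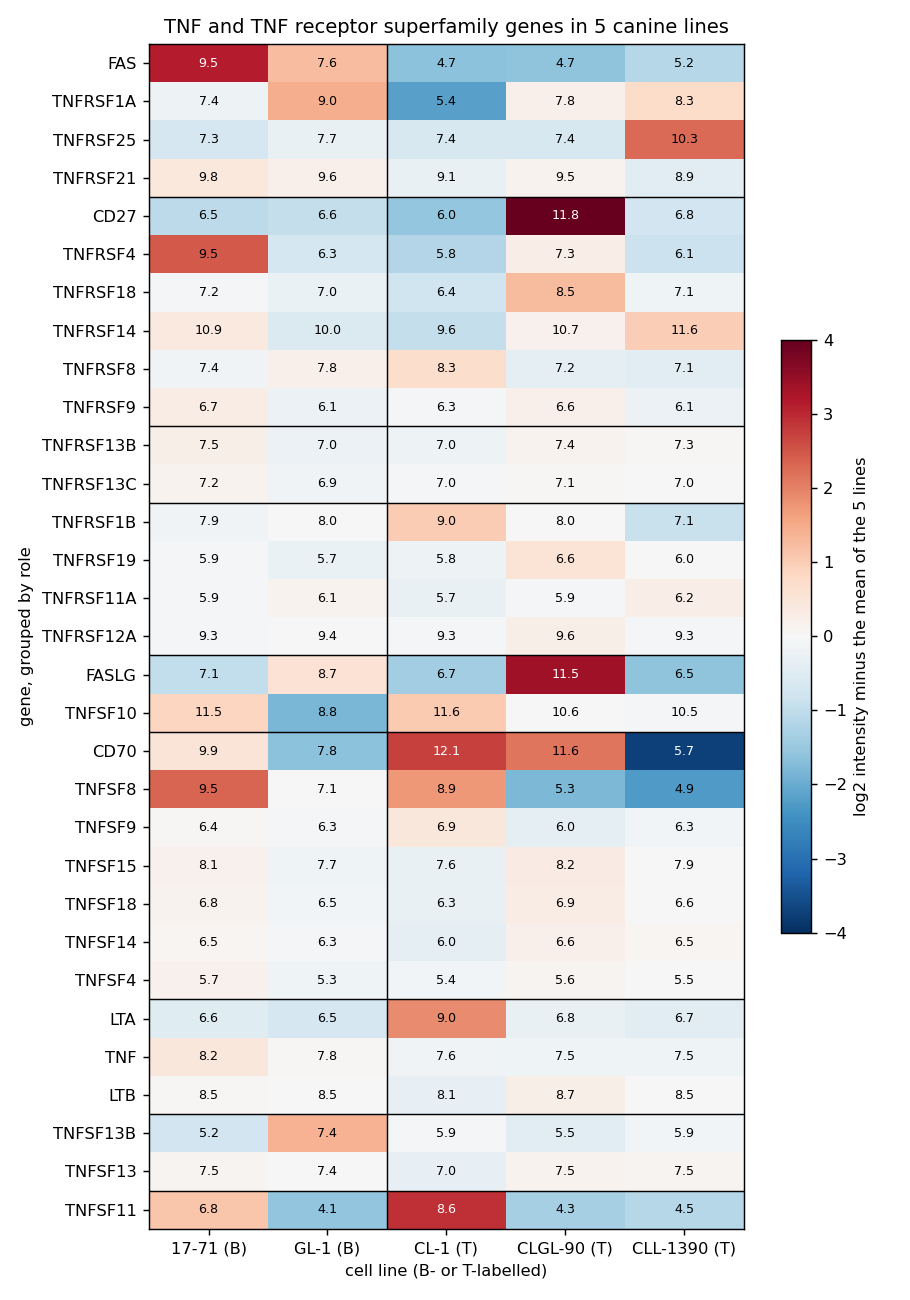
Values of the 31 tested members (rows, grouped by role) in the 5 lines (columns, B-labelled left). The number in each cell is the log2 intensity and the colour its difference from the mean of the 5 lines. CD27 in CLGL-90 (11.83) is the cell furthest above its gene's mean, and CD70 in CLL-1390 (5.66) the one furthest below.

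Among the death receptors, FAS, which triggers apoptosis when bound by FASLG, was the member that differed most between the labelled lineages. FAS read 9.50 in 17-71 and 7.57 in GL-1, against 4.71 in CL-1, 4.72 in CLGL-90 and 5.20 in CLL-1390. Both B-labelled lines lay above every T-labelled line, and all 3 T-labelled values lay under their control ceiling. The mean was 8.53 ± 1.36 (SD, n = 2 lines) in the B-labelled lines and 4.88 ± 0.28 (n = 3) in the T-labelled lines. The difference of 3.66 (SE 0.61, in limma across all tested genes) had an unadjusted p of 0.00226 and an adjusted p of 0.802, so FAS did not pass. With values floored at the control ceiling, the difference was 1.92. Of 5 myeloid markers, 3 had the same direction as FAS. LYZ (lysozyme) read 12.39 in 17-71 and 12.01 in GL-1, while T-labelled lines read 3.28 to 4.02. S100A9, a calcium-binding protein of neutrophils and monocytes, read 11.22 in 17-71 and 10.32 in GL-1, while T-labelled lines read 4.28 to 4.55. SPI1, a transcription factor of myeloid and B cells, read 9.45 in 17-71 and 8.94 in GL-1, while T-labelled lines read 5.21 to 5.51. The other two did not go with FAS: CD14 was above the ceiling in all 5 lines (7.95 to 8.26), and CSF1R varied by 0.19. Above the ceiling lay 4 of the 5 in 17-71 and 4 in GL-1, against 2 in CL-1, 1 in CLGL-90 and 2 in CLL-1390. The part of LYZ, S100A9 and SPI1 in the FAS difference was not tested.

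The other death receptors followed other lines. TNFRSF1A, the main receptor of soluble TNF, read 7.35 in 17-71 and 9.01 in GL-1, against 5.40 in CL-1, 7.76 in CLGL-90 and 8.31 in CLL-1390. CL-1 was the low line, 1.95 under the next and below the control ceiling. The other probe set of TNFRSF1A varied by 0.71 and was lowest in CL-1 too, at 6.30. TNFRSF25, the receptor of TNFSF15 on T cells, stood apart in CLL-1390 at 10.29, against 7.34 in 17-71, 7.71 in GL-1, 7.38 in CL-1 and 7.37 in CLGL-90. That gap to the next line was 2.59, with 1 probe set and no replicate. TNFRSF21, also called death receptor 6, varied by 0.88. It read 9.80 in 17-71 and 9.58 in GL-1, and no T-labelled line overlapped with these (8.92 to 9.52). Its difference of 0.51 (SE 0.25) had an unadjusted p of 0.0973 and an adjusted p of 0.9999 in limma. The other TNFRSF21 probe set was highest in GL-1 (8.01) but lowest in 17-71 (7.11), with the T-labelled lines between them at 7.26 to 7.47.

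The death ligands ran differently from FAS. FASLG, the ligand of FAS on cytotoxic lymphocytes, read 11.52 in CLGL-90, against 7.13 in 17-71, 8.71 in GL-1, 6.73 in CL-1 and 6.50 in CLL-1390. CLGL-90 lay 2.81 above GL-1, the next line, while its FAS value was under the control ceiling. The second probe set of FASLG was also highest in CLGL-90, at 6.14 against 4.41 to 4.59, all under the ceiling. TNFSF10, known as TRAIL, which signals death through receptors not among the members, was above the control ceiling in every line. It read 11.45 in 17-71 and 8.76 in GL-1, against 11.64 in CL-1, 10.60 in CLGL-90 and 10.53 in CLL-1390. GL-1 was the low line, 1.76 below CLL-1390. The second TNFSF10 probe set gave the same extremes, with 7.65 in GL-1 and 10.71 in CL-1.

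**Figure D2:**
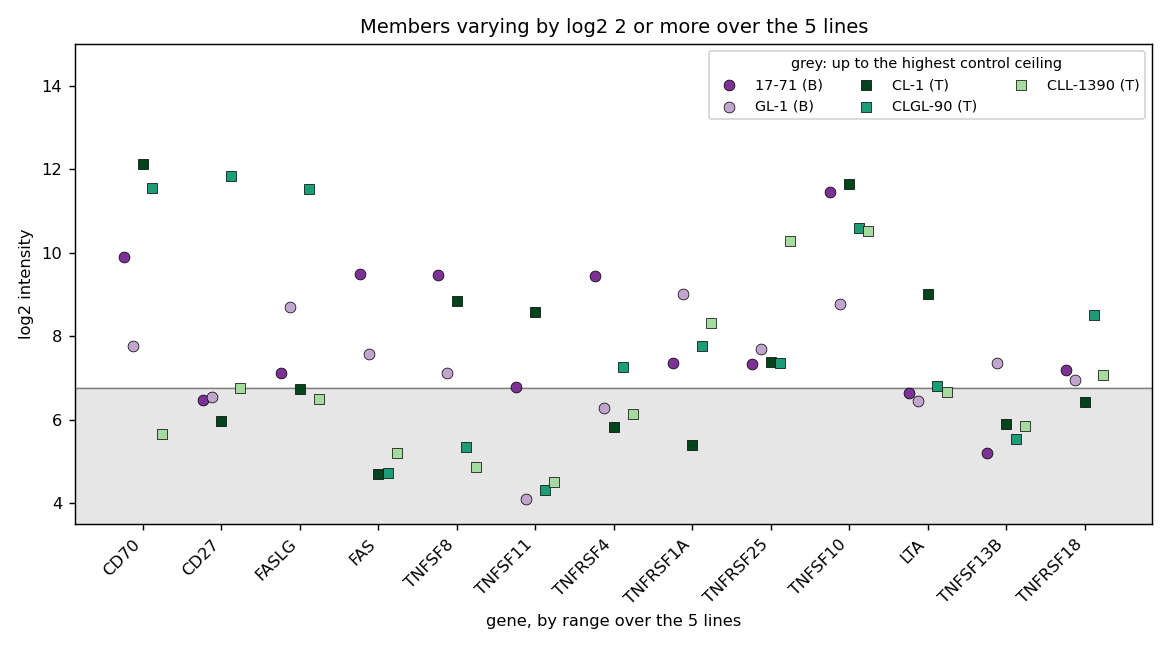
Log2 intensity (y axis) of the 13 members that varied by log2 2 or more, 1 point per line, with genes ordered by range. Circles are B-labelled and squares T-labelled lines; the grey band ends at 6.76, the highest control ceiling of the 5 arrays. The highest points of CD27 and FASLG are both CLGL-90, and all 3 T-labelled points of FAS lie in the grey band.

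Costimulatory receptors and ligands of T cells included the genes of largest range. CD27, a receptor of naive and memory T cells and of memory B cells, read 11.83 in CLGL-90, against 6.47 in 17-71, 6.55 in GL-1, 5.96 in CL-1 and 6.76 in CLL-1390. The gap of CLGL-90 to the next line was 5.07. Of the others, 17-71, GL-1 and CL-1 lay under their control ceiling, and CLL-1390 just above its own (6.70). The second CD27 probe set also stood apart in CLGL-90, at 9.75 against 6.66 to 6.91. CD70, the ligand of CD27, read 9.91 in 17-71 and 7.78 in GL-1, against 12.13 in CL-1, 11.56 in CLGL-90 and 5.66 in CLL-1390. CD70 had the widest range of all members, 6.47, and CLL-1390 lay 2.12 below the next line and under its ceiling. CLGL-90 thus held high values of the receptor and the ligand of this pair. In CL-1, 17-71 and GL-1 the ligand lay above the control ceiling and the receptor under it.

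TNFRSF4, known as OX40, a receptor of activated T cells, read 9.45 in 17-71, against 6.28 in GL-1, 5.82 in CL-1, 7.26 in CLGL-90 and 6.14 in CLL-1390. The gap of 17-71 to CLGL-90 was 2.19, and the other 3 lines lay under the control ceiling. TNFRSF18, known as GITR, which is high on regulatory and activated T cells, read 8.50 in CLGL-90, against 7.20 in 17-71, 6.96 in GL-1, 6.43 in CL-1 and 7.07 in CLL-1390. These genes are next to each other in the reference gene table with 0 protein-coding genes between them. For both, 17-71 and CLGL-90 were the highest lines and CL-1 the lowest, though for TNFRSF18 17-71 stood little above CLL-1390. Their ligands TNFSF4 (5.33 to 5.65) and TNFSF18 (6.32 to 6.90) varied by 0.32 and 0.58, and TNFSF4 lay under the control ceiling in every line.

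Markers of cytotoxic cells, and most of those of T cells, were also highest in CLGL-90. All 4 cytotoxic markers were highest and lay above the control ceiling there, with a mean of 10.76, against 1 to 3 of 4 and means of 5.75 to 6.77 in the other lines. The T-lymphocyte markers had a mean of 11.77 in CLGL-90, against 6.06 to 9.25 in the others. CD3D, CD3E, CD3G and LCK were highest in CLGL-90, whereas CD247 was highest in CL-1 (11.16), with CLGL-90 next (10.64). The part of these markers in the CLGL-90 values of CD27, FASLG and TNFRSF18 was not tested.

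TNFSF8, the ligand of CD30, followed 17-71 and CL-1. TNFSF8 read 9.47 in 17-71 and 7.12 in GL-1, against 8.86 in CL-1, 5.34 in CLGL-90 and 4.88 in CLL-1390. The order of its values crossed the labels, with a T-labelled line in second place. TNFRSF8, which encodes CD30, varied by 1.14, with 8.26 in CL-1 as its highest value and 7.12 in CLL-1390 as its lowest. TNFRSF14, the receptor of TNFSF14 known as HVEM, read 10.94 in 17-71 and 9.99 in GL-1, against 9.60 in CL-1, 10.72 in CLGL-90 and 11.55 in CLL-1390. All 3 of its probe sets were highest in CLL-1390. TNFSF14 (6.02 to 6.59) lay under the control ceiling in every line. TNFSF9, the ligand of 4-1BB, varied by 0.82 and TNFRSF9, which encodes 4-1BB, by 0.52, each above the ceiling in 1 line.

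The reading of TNFSF15, a ligand of TNFRSF25 made by endothelial and myeloid cells, depends on the probe set. The probe set of highest mean read 7.58 to 8.21 and hardly varied. A pair of other TNFSF15 probe sets stood apart in CL-1: one read 10.55 there, against 7.23 in 17-71, 4.15 in GL-1, 4.44 in CLGL-90 and 4.14 in CLL-1390, and another 9.81, against 7.27 in 17-71 and 5.68 to 5.95 in the remaining lines. The fourth stayed at 4.22 to 4.36. In both varying probe sets CL-1 was highest, 17-71 came second, and the other 3 lines lay under the control ceiling. TNFSF15 and TNFSF8 neighbour each other in the reference gene table with 0 protein-coding genes between them, and 17-71 and CL-1 were the highest lines for TNFSF8 as well.

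TNFSF11, or RANK ligand, which drives osteoclast formation and is made by activated T cells, was highest in the same lines. TNFSF11 read 6.78 in 17-71 and 4.10 in GL-1, against 8.57 in CL-1, 4.33 in CLGL-90 and 4.52 in CLL-1390. The last of these and the other low values lay near the medians of the 59 background controls (4.07 to 4.29). Its receptor TNFRSF11A, or RANK, read 5.67 to 6.23 and lay under the control ceiling in every line.

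**Figure D3:**
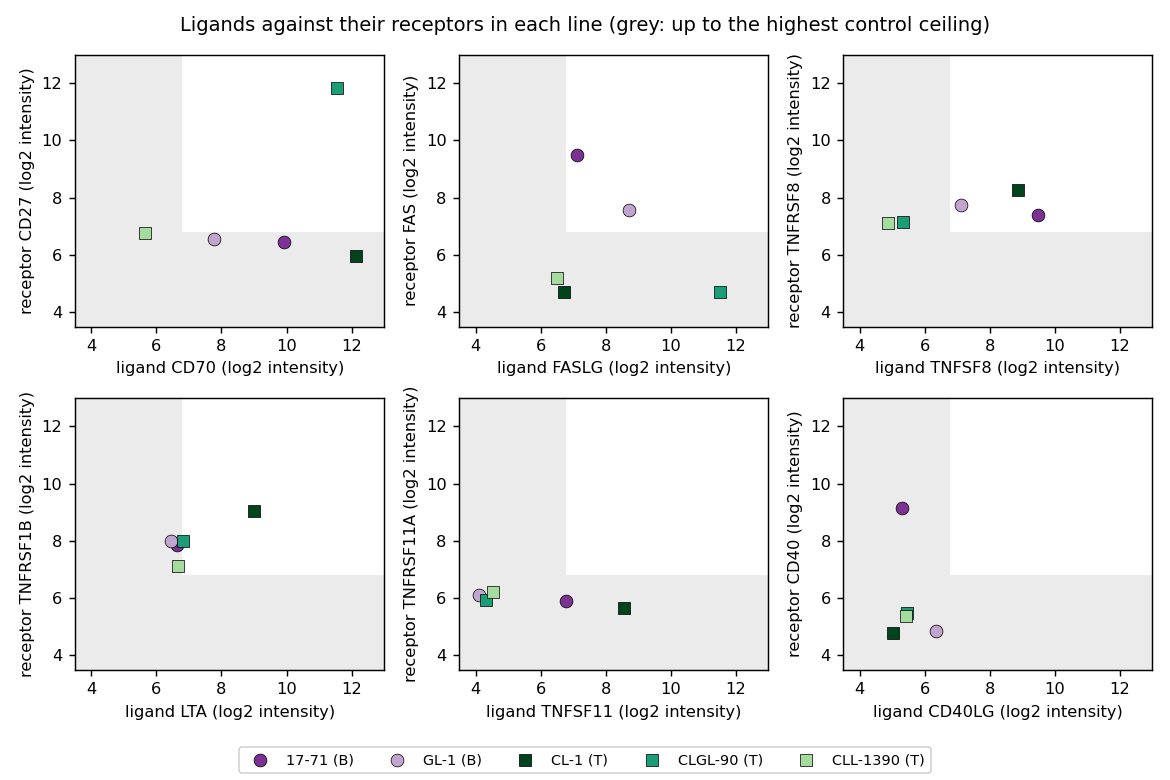
Each panel sets the log2 intensity of a ligand (x axis) against that of a receptor (y axis) in the 5 lines, circles B-labelled and squares T-labelled; grey reaches to 6.76, the highest control ceiling. CLGL-90 is the point high on both axes for CD70 and CD27 (11.56 and 11.83), and for FASLG and FAS it is high on the ligand axis only (11.52 and 4.72).

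Lymphotoxin and TNF themselves gave smaller differences. LTA, lymphotoxin alpha, read 6.64 in 17-71 and 6.45 in GL-1, against 9.00 in CL-1, 6.81 in CLGL-90 and 6.68 in CLL-1390. The groups did not overlap, but CL-1 alone stood apart, 2.19 above the next line. GL-1 and CLL-1390 lay under their control ceiling, and 17-71 (ceiling 6.60) and CLGL-90 (ceiling 6.76) just above, so the lack of overlap depends on background. The difference of LTA was -0.95 (SE 0.79, adjusted p = 0.9999 in limma), and -0.20 without CL-1. TNFRSF1B, a receptor of TNF and lymphotoxin alpha found mainly on blood cells, was highest in CL-1 too, at 9.03 against 7.11 to 8.001. Its other probe set varied by 0.46 and was highest in CLGL-90. TNF read 8.18 in 17-71 and 7.78 in GL-1, against 7.57 in CL-1, 7.55 in CLGL-90 and 7.54 in CLL-1390. This difference of 0.42 (SE 0.19) had an unadjusted p of 0.0841 and an adjusted p of 0.9999, and was 0.22 without 17-71 and 1.75 with the TNF probe set of highest variance. Another TNF probe set was also higher in 17-71 (6.90) and GL-1 (6.38) than in CL-1 (5.27), CLGL-90 (5.08) and CLL-1390 (4.33), whereas a further one was highest in CL-1 (7.60). LTB, lymphotoxin beta, varied by 0.57.

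The ligands and receptors of B-cell survival gave little by which to tell the labels apart. TNFSF13B, known as BAFF, read 5.21 in 17-71 and 7.36 in GL-1, against 5.90 in CL-1, 5.54 in CLGL-90 and 5.86 in CLL-1390. GL-1 alone lay above its control ceiling. Of its other probe sets 1 was highest in GL-1, at 4.42, and 1 in CL-1. TNFRSF13B, or TACI, varied by 0.46 and TNFRSF13C, the BAFF receptor, by 0.28, so neither probe set is shown to respond in any line. TNFSF13, or APRIL, varied by 0.48. TNFRSF12A (9.27 to 9.58), the receptor of TWEAK, varied by 0.30, and TNFRSF19 (5.73 to 6.56) lay under the control ceiling in every line.

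Of these families, 7 of 8 further genes known under other names were on the array. CD40, the receptor by which T cells activate B cells, read 9.17 in 17-71, against 4.87 in GL-1, 4.78 in CL-1, 5.49 in CLGL-90 and 5.37 in CLL-1390. All lines but 17-71 lay under the control ceiling. LTBR, the lymphotoxin beta receptor, read 10.08 in 17-71 and 8.30 in GL-1, against 7.36 in CL-1, 7.70 in CLGL-90 and 7.76 in CLL-1390. LTBR had the order of FAS in the B-labelled lines, with 17-71 first, GL-1 second and all T-labelled lines below. Its difference of 1.58 (SE 0.56) had an unadjusted p of 0.0401 and an adjusted p of 0.9999. It was 0.69 without 17-71, 2.47 without GL-1 and 4.12 with the LTBR probe set of highest variance. The LTBR probe set of largest range read 12.14 in 17-71 and 9.20 in GL-1, against 6.29 in CL-1, 6.64 in CLGL-90 and 6.71 in CLL-1390. Another kept this order, with 8.15 in 17-71, 6.18 in GL-1 and 4.70 to 5.41 in the T-labelled lines. The remaining LTBR probe sets were highest in 17-71 but did not keep GL-1 above the T-labelled lines. In one, GL-1 read 6.43 and CLGL-90 6.53, and in the last GL-1 was lowest at 5.16. CD40LG (5.03 to 6.35), the ligand of CD40, was highest in GL-1 and under the control ceiling in every line. RELT (5.20 to 6.40), EDA (5.20 to 5.37) and NGFR (6.06 to 6.44) also lay under it in every line, and EDAR varied by 0.54.

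**Figure D4:**
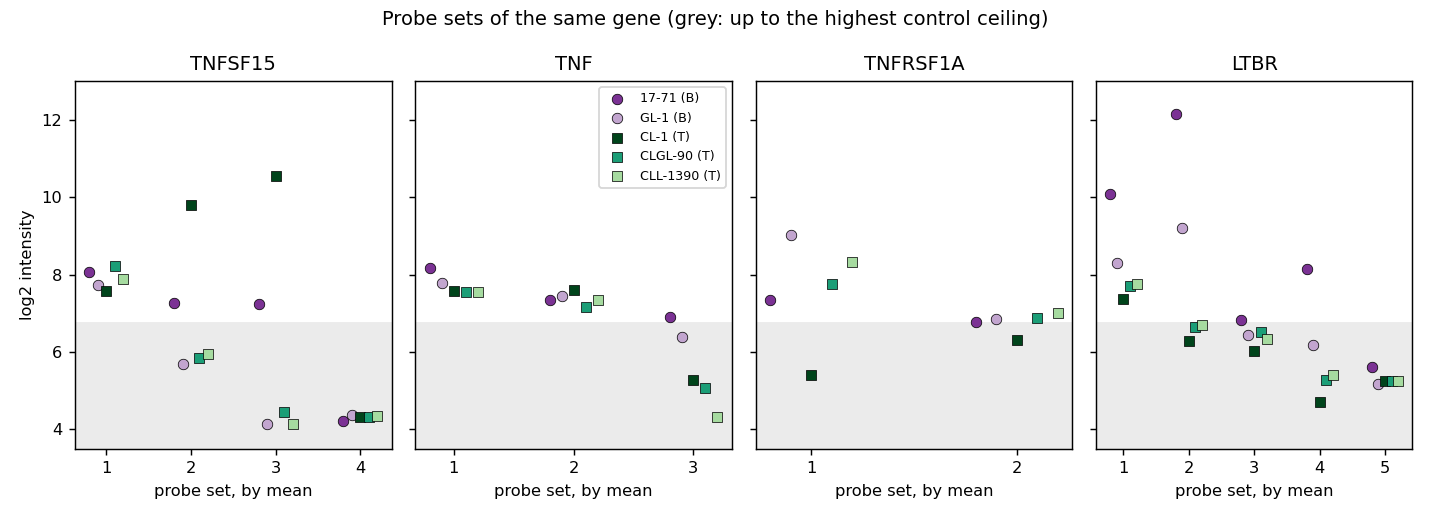
Log2 intensity (y axis) of every probe set of TNFSF15, TNF, TNFRSF1A and LTBR, numbered by falling mean (x axis), 1 point per line; circles are B-labelled and squares T-labelled lines, and grey reaches to 6.76. In TNFSF15 probe set 1 lies between 7.58 and 8.21 in all lines, while CL-1 stands at 9.81 and 10.55 in probe sets 2 and 3.

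Set against each other, the labelled lineages differed in 0 of the 31 tested members by limma at an adjusted p under 0.05 over all 14162 genes, where 1 gene passed (0.00706%). At an unadjusted p under 0.05, 1 member (FAS) was higher in the B-labelled lines, against 1.89% of all tested genes, and 0 were lower, against 1.63%. The median difference of the members was 0.005 on the log2 scale and that of all tested genes -0.027; 16 members were higher and 15 lower in the B-labelled lines. FAS, TNF and TNFRSF21 had both B-labelled values above all 3 T-labelled values (3 of 31, or 9.68%, against 6.12% of all tested genes). LTA had both below (1 of 31, or 3.23%, against 9.26%). Without 17-71 these counts were 5 and 6, without GL-1 9 and 3, without CL-1 6 and 4, without CLGL-90 6 and 1, and without CLL-1390 3 and 2, beside shares of all genes of 11.3 to 18.3% and 14.3 to 26%. Spread within a label was wide: CD27 differed by -1.68 (SE 1.89), CD70 by -0.94 (SE 2.22), TNFSF8 by 1.94 (SE 1.47) and TNFRSF4 by 1.46 (SE 1.05), each with an adjusted p of 0.9999. The remaining varying members differed by 1.02 (SE 1.05, TNFRSF1A), 0.52 (SE 0.67, TNFSF13B), -0.25 (SE 0.65, TNFRSF18), -0.33 (SE 1.75, FASLG), -0.37 (SE 1.64, TNFSF11), -0.82 (SE 0.89, TNFSF10) and -0.82 (SE 1.02, TNFRSF25). Single lines set several of these signs: without CLGL-90 the difference of CD27 was 0.15, of FASLG 1.30 and of TNFRSF18 0.34, without 17-71 that of TNFRSF4 was -0.12 and of FASLG 0.46, and without CLL-1390 that of TNFRSF25 was 0.15. Without GL-1 TNFSF10 differed by 0.53, TNFSF11 by 0.98, TNFSF13B by -0.55 and CD70 by 0.13, and without CL-1 CD70 differed by 0.23. TNFSF8 kept its sign, with 0.76 without 17-71, 3.11 without GL-1, 3.18 without CL-1, 1.20 without CLL-1390 and 0.86 floored at the control ceiling. TNFRSF1A kept its sign too, with 0.14 without CL-1, 0.20 without GL-1, 1.85 without 17-71 and 1.60 without CLL-1390. Without 17-71 or without CL-1, TNFSF11 did not reach the filter and gave no value. A p that misses the threshold with 2 and 3 lines does not show that the labels were alike.

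**Figure D5:**
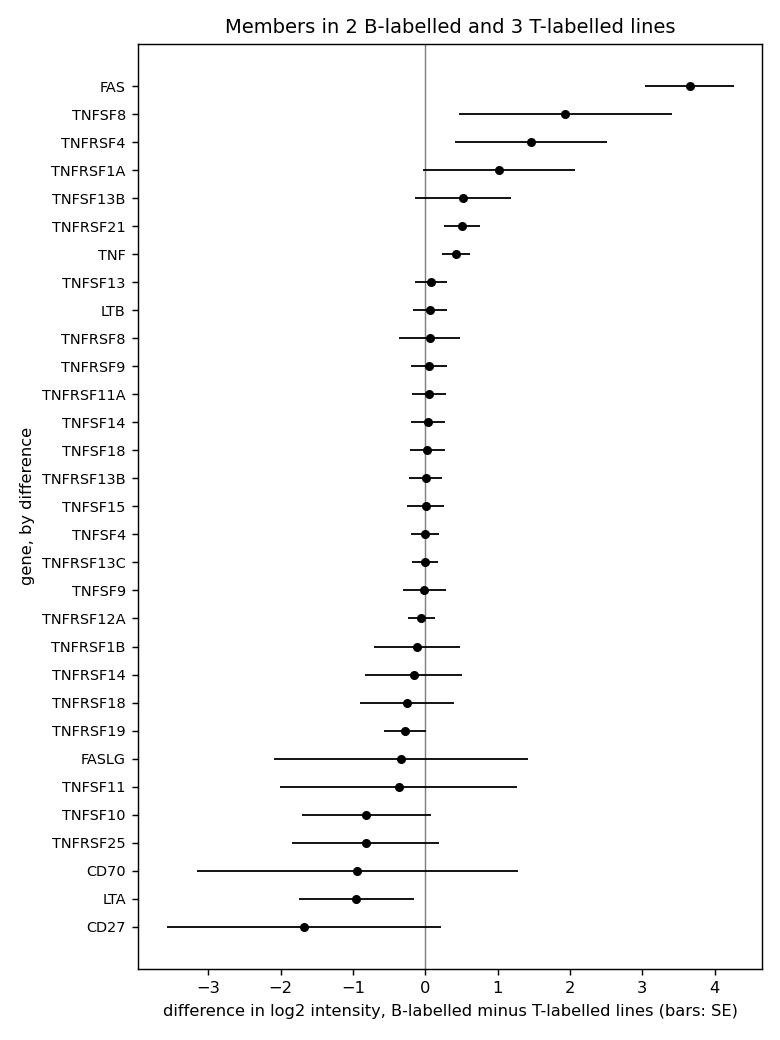
Difference in log2 intensity between the 2 B-labelled and the 3 T-labelled lines (x axis) of the 31 tested members (y axis); bars are the SE of the limma fit. FAS lies furthest to the right at 3.66, and CD27 furthest to the left at -1.68 with an SE of 1.89.

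Single lines differed in few members by log2 2 or more from every other line. Above every other line lay TNFRSF4 in 17-71 (1 of 31, against 0.734% of all tested genes), LTA in CL-1 (1, against 0.89%), CD27 and FASLG in CLGL-90 (2, against 0.621%) and TNFRSF25 in CLL-1390 (1, against 0.381%). GL-1 had 0 such members, against 0.346%. Below every other line lay CD70 in CLL-1390 (1, against 0.254%), and 0 members in 17-71 (0.247%), CL-1 (0.395%), GL-1 (0.148%) and CLGL-90 (0.169%). Between pairs of lines, CL-1 and CLGL-90 differed by log2 2 or more in the most members, 7 of 31 (22.6%, against 5.18% of all tested genes). These 7 were CD27, FASLG, TNFRSF18 and TNFRSF1A, higher in CLGL-90, and LTA, TNFSF11 and TNFSF8, higher in CL-1. Differences of this size were found in 6 members each (19.4%) between 17-71 and CLGL-90 (against 4.37% of all tested genes), 17-71 and CLL-1390 (5.16%), CL-1 and GL-1 (5.19%) and CL-1 and CLL-1390 (6.07%), and in 5 (16.1%, against 3.2%) between GL-1 and CLL-1390. The fewest, 4 of 31, differed between 17-71 and CL-1 (12.9%, against 5.85%), GL-1 and CLGL-90 (4.02%) and CLGL-90 and CLL-1390 (4.06%). The pair of B-labelled lines, 17-71 and GL-1, differed in 6 members (19.4%, against 3.98%): CD70, TNFRSF4, TNFSF10, TNFSF11 and TNFSF8 were higher in 17-71 and TNFSF13B in GL-1.

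Several family genes are neighbours in the genome, and neighbours did not always share an order. CD70 lies between TNFSF14 and TNFSF9 with 0 protein-coding genes on either side. While CD70 varied by 6.47 over the lines, TNFSF14 varied by 0.57 and TNFSF9 by 0.82. TNFSF14 lay under the control ceiling in every line and TNFSF9 above it in 1 line only. Values so near background cannot show whether these neighbours share the order of CD70. CD27 and LTBR are adjacent as well, with CLGL-90 highest for CD27 and 17-71 for LTBR. LTA, TNF and LTB form one cluster, in which LTA was highest in CL-1. The probe set standing for TNF varied by 0.64 and that for LTB by 0.57. Their highest lines, 17-71 and CLGL-90, thus say little about a shared order. The other TNF probe sets did not share a highest line. FASLG and TNFSF18, with 1 gene between them, were both highest in CLGL-90, though TNFSF18 varied by 0.58.

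Of 47 genes that act after the receptors, 41 were tested, and 0 passed the test between the labelled lineages (1 at an unadjusted p under 0.05, OTULIN, higher in the B-labelled lines, or 2.44% against 1.89% of all tested genes). Their median difference was 0.10 against -0.03 for all tested genes. Of the 41, 26 were higher and 15 lower in the B-labelled lines, while of all tested genes 6383 were higher and 7779 lower. Over the 5 lines 12 of the 41 varied by log2 2 or more (29.3%), against 14.2% of all tested genes. BIRC3, an inhibitor of apoptosis bound to TRAF2, had the largest range: 13.25 in 17-71 and 6.95 in GL-1, against 4.35 in CL-1, 4.42 in CLGL-90 and 8.68 in CLL-1390. CYLD, a deubiquitinase that restrains NF-kB, read 9.86 in 17-71 and 7.57 in GL-1, against 5.48 in CL-1, 7.87 in CLGL-90 and 7.76 in CLL-1390. The NF-kB subunit REL read 8.55 in 17-71 and 6.75 in GL-1, against 7.09 in CL-1, 5.17 in CLGL-90 and 4.72 in CLL-1390, an order with 17-71 and CL-1 first as in TNFSF8. TANK, a binding partner of TRAFs, was highest in 17-71 at 11.64, against 8.28 to 9.76 in the others. Under the control ceiling lay BIRC3 in CL-1 and CLGL-90, CYLD in CL-1, and REL in CLGL-90 and CLL-1390, so these ranges depend on background. BIRC3 has 4 probe sets and TANK 2, of which only the probe set of highest mean is given.

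TNIP1, BCL3, XIAP and NFKBIA were highest in CL-1. TNIP1, a partner of the deubiquitinase A20, read 10.69 in CL-1, against 6.89 to 8.88 in the other lines. BCL3, a nuclear IkB protein, read 9.04 in CL-1, against 7.77 in 17-71 and 5.62 to 5.96 in the others. XIAP, a caspase inhibitor, read 8.81 in CL-1, against 5.33 to 6.62. For both BCL3 and XIAP, GL-1, CLGL-90 and CLL-1390 lay under their control ceiling. NFKBIA, which encodes the inhibitor IkB alpha, read 12.52 in CL-1, against 12.02 in 17-71, 11.04 in GL-1, 11.98 in CLGL-90 and 9.79 in CLL-1390. The death-domain adaptor TRADD varied by 0.50, and CFLAR, an inhibitor of caspase 8, by 0.32. CASP8 itself was highest in CL-1 at 9.68 and lowest in CLGL-90 at 7.37. XIAP (3 probe sets), TNIP1 (2), TRADD (2) and CFLAR (4) are likewise given by the probe set of highest mean only.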

How the data were processed

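Total RNA of 5 canine lymphoid lines was measured on 1 biotin-labelled array each. Per the submitters' processing notes the authors ran GCRMA, and the deposited table gives its log2 intensity for each probe set; which version, scanner setting or filter was used is not stated in these sources. Of 43035 probe sets, 111 Affymetrix controls were left out, and 59 of these, for sequences absent from dogs, gave each array's control ceiling, its highest such value. Of the remaining 42924, 29254 had 1 gene symbol in the platform annotation, 439 had several and were not used, and 13231 were unnamed; 94.6% of the gene IDs matched the RefSeq gene table (assembly UU_Cfam_GSD_1.0), which served for names and neighbours only. IDs of 29 of the 32 members matched.

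The test of B-labelled against T-labelled lines used limma 3.58.1 under R 4.3.3 (lmFit with eBayes, two-sided, Benjamini-Hochberg over 14162 genes, threshold 0.05, residual df 3, prior df 1.74). The fit was tested on simulated data. Members that varied by log2 2 or more and cleared the control ceiling in a line were named with all values, as were FAS, CD27 and TNFSF10. All further family genes and the 8 signalling genes of largest range were named too, some with a range in place of all values. OTULIN, TRADD, CFLAR and CASP8 were chosen after their values were seen. Members and lists were chosen with earlier results of these data known. Alternatives covered the filter, normalization, floors, prior, probe-set summary, CLGL-90 as its own group and each line left out; the floor at the control ceiling was added after seeing the data. No protein or promoter sequences were used here.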

Additional observations from a re-analysis of the deposited data

How the results depend on the processing

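The count of members past the threshold in limma stayed at 0 under every alternative that kept more than 1 line per label. At most 0.094% of all tested genes passed in any of these, so the count had little room to change. Members whose B-labelled values all lay above the T-labelled ones numbered 3 to 9 with each line left out in turn (against 11.3 to 18.3% of all tested genes). They numbered 6 of 31 with CLGL-90 as its own group (against 12.7%). With the mean of all probe sets they were 2 of 30 (against 6.46%), and with quantile normalization again 2 of 31 (against 6.77%), FAS and TNF in both. Members whose B-labelled values all lay below numbered 1 to 6 with a line left out (against 14.3 to 26%). They numbered 0 of 20 with the stricter filter at log2 7 (against 9.32% of all tested genes). With the floor at the control ceiling they were 2 of 32 (against 8.39%), where tied low values take the order of the controls. FAS stayed higher in the B-labelled lines throughout (1.92 to 4.62, adjusted p 0.147 to 1). The members at least log2 2 above every other line in CL-1 became 2 with the probe set of highest variance, through TNFSF15, and those below every other line in CLL-1390 became 0 with the floor at the control ceiling. The count varying by log2 2 or more ran from 11 of 32 with the floor at the control ceiling to 15 of 30 with the probe set of highest variance. The share of all tested genes moved too, from 11.4% to 18.7% in these settings. Of 234 recomputed single-gene differences 220 kept their direction and 14 reversed. Settings that changed only the filter or the prior could not change a difference, so part of the 220 was fixed in advance. CLGL-90 as its own group gave the same differences as leaving that line out, so the counts include these values again. With CLGL-90 as its own group CD27 turned to 0.15, FASLG to 1.30 and TNFRSF18 to 0.34. With a line left out, differences ran from -2.79 to 0.15 for CD27, -3.00 to 0.23 for CD70, -1.21 to 1.30 for FASLG, -0.70 to 0.34 for TNFRSF18, -1.31 to 0.15 for TNFRSF25, -0.12 to 3.04 for TNFRSF4, -2.16 to 0.53 for TNFSF10, -1.11 to 0.98 for TNFSF11 and -0.55 to 1.60 for TNFSF13B; TNFSF11 has only 3 of these 5 values, since it missed the filter without 17-71 and without CL-1. Ranges without a change of sign were 0.76 to 3.18 for TNFSF8, 0.14 to 1.85 for TNFRSF1A, -1.36 to -0.20 for LTA, 0.69 to 2.47 for LTBR, 0.22 to 0.62 for TNF and 0.39 to 0.69 for TNFRSF21. The cause was not tested. A group left with 1 line was assumed to vary like the other. No paired analysis was possible, because the samples are 5 different lines and nothing in the labels pairs a B-labelled with a T-labelled line.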
